A study of Mus musculus with 4 samples.

Results

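Messenger RNA levels were followed for 10 mouse genes of the PIWI and Tudor families and of the chromatoid body: Piwil1, Piwil2, Tdrd1, Tdrd5, Tdrd6, Tdrd7, Tdrd9, Ddx4, Mael and Rnf17. They were taken by name from tables of 22552 gene symbols, and each of the 10 was listed once. The tables come from 4 RNA-sequencing libraries of round spermatids, 2 from wildtype mice and 2 from Sox30 knockout mice, all males 23 days old. Haploid cells had been sorted from Hoechst-stained testis cells. SOX30 is a transcription factor of the SOX family, and by the design text no haploid cell later than step 3 spermatids is present at this age. The background strain is given as DBA/C57/ICR and DBA/C59/ICR for wildtype libraries 1 and 2, and as DBA/C58/ICR and DBA/C60/ICR for knockout libraries 1 and 2. The number after C rises with sample order, so whether the strains truly differ is not known. The sources used here do not give the part of Sox30 removed, the making of the allele, or whether each library had animals of its own. The p-values therefore reflect how far the 4 libraries scatter, which may be technical scatter.

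PIWI proteins bind PIWI-interacting RNAs (piRNAs), small germline RNAs that guide them to transposon and other transcripts. Tudor proteins hold PIWI proteins by their methylated arginines and gather them in germ granules. In round spermatids the main granule is the chromatoid body, a cytoplasmic mass of RNA and RNA-binding proteins beside the nucleus. Loss of each of these 10 genes leaves male mice sterile, with germ cells that stop at different stages. Without Piwil2, Tdrd1, Tdrd9, Ddx4 or Mael germ cells stop in meiotic prophase. Without Piwil1, Tdrd5, Tdrd6, Tdrd7 or Rnf17 most stop as round spermatids. The labels give no stage for a gene, so the genes were compared by this known stage of arrest and, apart from that, by known transcript onset.

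The sequence just before the transcription start is shown for Mael, Ddx4 and Piwil1, because Mael and Piwil1 were the most abundant gene and one of the scarcest and Ddx4 lay lower in both knockout libraries. The 250 bases come from RefSeq on GRCm38.p6, which is not the build of the deposited tables, and are written 5′ to 3′ along the gene. Entries were found for 7 of the 10 genes, and Piwil2, Tdrd6 and Rnf17 had none. Capitals mark AACNG, a form of the core that MYB factors bind, and ACAAT, a form of the core that SOX factors bind, on either strand. Other forms of these cores were not searched for, so a window without capitals may still hold them.
Mael, chr1:166238745-166238994, minus strand: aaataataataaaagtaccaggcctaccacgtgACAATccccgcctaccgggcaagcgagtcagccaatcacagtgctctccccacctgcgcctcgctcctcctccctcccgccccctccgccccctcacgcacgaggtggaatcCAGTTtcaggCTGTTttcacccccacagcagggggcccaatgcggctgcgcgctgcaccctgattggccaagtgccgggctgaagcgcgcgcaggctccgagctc
Ddx4, chr13:112652311-112652560, minus strand: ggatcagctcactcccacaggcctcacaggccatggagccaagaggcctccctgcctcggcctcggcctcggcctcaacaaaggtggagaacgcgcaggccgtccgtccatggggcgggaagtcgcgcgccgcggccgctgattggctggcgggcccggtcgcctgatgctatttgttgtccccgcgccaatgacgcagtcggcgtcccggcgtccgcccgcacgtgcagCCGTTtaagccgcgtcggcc
Piwil1, chr5:128735996-128736245, plus strand: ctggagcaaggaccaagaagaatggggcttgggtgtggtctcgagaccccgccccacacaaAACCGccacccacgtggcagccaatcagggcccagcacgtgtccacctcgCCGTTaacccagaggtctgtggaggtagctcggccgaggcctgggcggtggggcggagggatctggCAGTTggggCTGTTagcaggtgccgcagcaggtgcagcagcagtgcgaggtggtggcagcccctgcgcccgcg
Of all 32851 promoter windows of this length in the table, 74.2% held AACNG and 27.7% held ACAAT. The Mael window held AACNG 2 times and ACAAT 1 time, the Ddx4 window held AACNG 1 time, and the Piwil1 window held AACNG 4 times. No match shared a base with another. Among the 11 windows of the 7 genes, ACAAT was found in that of Mael alone. These are matches of letters and not measured binding sites.

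Levels are given as FPKM, in which fragment numbers are divided by transcript length and by library size, so genes can be compared per length. Read counts were not used here. From the steps between the lowest values, the depth of wildtype library 2 and of knockout libraries 1 and 2 was 1.39, 1.24 and 1.17 times that of wildtype library 1. Symbols listed at 0 numbered 9329 and 11112 in knockout libraries 1 and 2 and 6414 and 5915 in wildtype libraries 1 and 2, so more of the low values in the knockout are 0. Sox30 itself had 1.46 and 3.16 FPKM in the knockout against 11.4 and 16.2 FPKM in the wildtype, so its direction matched the labels (log2 change -2.19, limma adjusted p = 0.0219). Its call was lost with no filter on low values (limma adjusted p = 0.0660). Sox30 was not called without wildtype library 1 (log2 change -2.43) or without wildtype library 2 (-1.95). Each of those fits left a single wildtype library, so they cannot decide its call. The 6 round spermatid markers were present in every library, with a summed level of 1799.9 and 1587 FPKM in the wildtype and 591 and 387 FPKM in the knockout. The 7 spermatocyte markers were also present in all 4 libraries, with a summed level of 324 and 274 FPKM in the wildtype and 193 and 230 FPKM in the knockout. Each of these sums was lower in the knockout libraries. Of the 6 round spermatid markers, Acrv1, Spaca1 and Tssk1 were called lower, and Zpbp, Acr and Crem were not called. Of the 7 spermatocyte markers 0 were called, with a median log2 change of -0.82. Markers of other cells and stages also moved with genotype. The summed level of 5 later spermatid markers, the protamines among them, was 11976 and 6922 FPKM in the wildtype against 41.5 and 6.41 FPKM in the knockout. Protamine transcripts are known from later steps than step 3, so the wildtype level goes against the design text. The 5 spermatogonia markers summed to 44.4 and 41.6 FPKM against 10.7 and 7.72 FPKM, and the 2 peritubular markers to 7.62 and 6.46 FPKM against 1.23 FPKM and 0. The 5 blood and macrophage markers summed to 242 and 132 FPKM against 8.18 and 1.4e-06 FPKM, and the 5 Leydig markers to 60.0 and 36.8 FPKM against 0.0674 and 1.5e-242 FPKM. Most of the wildtype spermatogonia, peritubular, blood and Leydig sums came from a single gene each. In wildtype library 1 these were Dazl (35.7 FPKM), Acta2 (7.61), Hba-a1 (220) and Insl3 (54.8). The other markers in these 4 lists were also lower in both knockout libraries, apart from Emr1, but most were too low to be tested. The 4 Sertoli markers summed to at most 3.43 FPKM in any library, with Amh listed at 0 in all. In sorted bulk RNA, fewer cells of a type and less RNA per cell cannot be told apart.

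The 10 genes spanned more than 2 orders of magnitude in level, and a single gene held most of their RNA. Mael, whose protein acts with PIWI proteins in transposon silencing, stood at 1491 and 1255 FPKM in the wildtype libraries. It ranked 43 of 22552 symbols by wildtype mean. Piwil1, the PIWI protein that carries pachytene piRNAs, stood at 4.10 and 6.14 FPKM and ranked 5683. Mael was thus 364 and 204 times as abundant as Piwil1 per length in wildtype libraries 1 and 2, and 308 and 218 times in knockout libraries 1 and 2. Transcript GC content was 45.8% for Mael and 54.1% for Piwil1. The part of GC content in such ratios between genes was not tested. Mael made up between 77.5% and 89.8% of the summed FPKM of the 10 genes in each library.

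**Figure D1:**
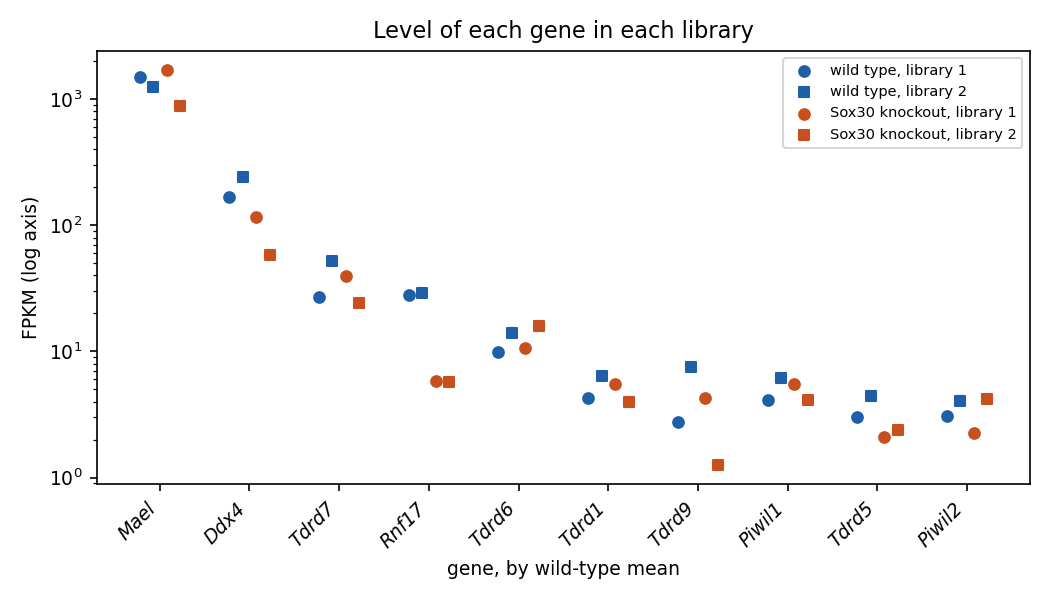
FPKM of the 10 genes (log axis) in each of the 4 libraries, wildtype in blue and Sox30 knockout in orange, library 1 as circles and library 2 as squares, with genes ordered by wildtype mean. Mael stands between 890 and 1689 FPKM and Ddx4 between 58.4 and 241 FPKM, and the pair of orange points of Rnf17 lies far below its pair of blue points.

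By wildtype mean the order was Mael, Ddx4, Tdrd7, Rnf17, Tdrd6, Tdrd1, Tdrd9, Piwil1, Tdrd5 and Piwil2. The wildtype values of Tdrd7 and Rnf17 overlapped, as did those of each pair of neighbours from Tdrd1 down to Piwil2, so their order was not set by the range of the libraries. Within a library, however, Piwil1 lay above Tdrd5 in all 4, while the other overlapping neighbours changed order between the wildtype libraries. The remaining neighbours did not overlap in the wildtype. Of the 10 genes, 5 had a wildtype mean under 10 FPKM.

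Against the knockout, Rnf17 alone of the 10 genes passed the test. It encodes a RING finger protein with Tudor domains that sits in a germ granule of its own and is needed in round spermatids. Rnf17 stood at 28.2 FPKM in wildtype library 1, 28.8 in wildtype library 2, 5.80 in knockout library 1 and 5.73 in knockout library 2. The genotypes lay far apart and the libraries of each genotype lay close, within 1.02 times of each other. The wildtype mean was 4.95 times the knockout mean, and Rnf17 fell by 2.13 on the log2(FPKM + 1) scale (SE 0.31, 95% interval -2.90 to -1.35, limma adjusted p = 0.00805). In the order of mean levels it went from the fourth place in the wildtype to the fifth in the knockout, below Tdrd6. That 1 of 10 genes was called lower is close to the 13.4% of all 9124 genes tested that were called lower in this comparison. No member was called higher, against 1.95% of all genes, and at an unadjusted limma p under 0.05 there were 2 members lower and 0 higher, against 23.0% and 8.30% of all genes.

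**Figure D2:**
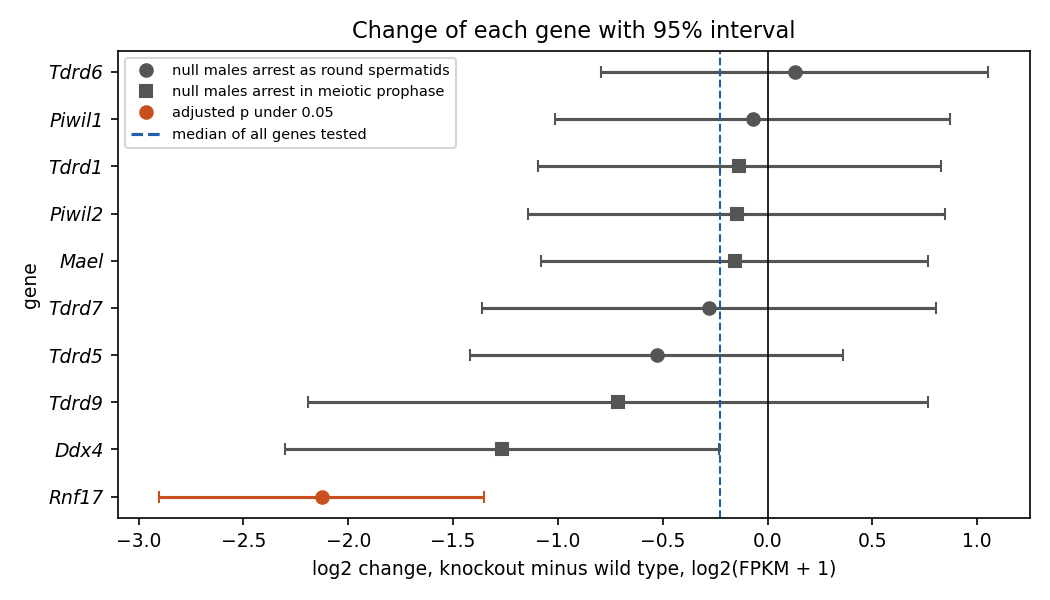
Log2 change of each gene, knockout minus wildtype, on the log2(FPKM + 1) scale, with 95% limma intervals. Circles and squares mark genes whose loss stops germ cells as round spermatids or in meiotic prophase, orange marks an adjusted p under 0.05 and the dashed line the median of all genes tested. Rnf17 at -2.13 is the only orange point, and 8 of the other intervals cross 0.

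The size of the Rnf17 difference did not depend on either wildtype library. Its change was -2.14 without wildtype library 1 and -2.11 without wildtype library 2. Rnf17 was not called in either fit, but each left a single wildtype library, so neither can decide its call. Rnf17 also had the lowest transcript GC content of the 10 genes, 40.2%, and Ddx4 the next lowest, 42.1%, while the other 8 lay between 45.8% and 54.1%. After a correction of each library for GC content the Rnf17 change was -1.34 (limma adjusted p = 0.0275), and with that curve fitted to levels instead it was -1.13 (limma adjusted p = 0.0508). The summed round spermatid, spermatocyte, later spermatid, spermatogonia, peritubular, blood and Leydig markers were lower in the same libraries as Rnf17. The part of these marker shifts in the result was not tested.

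**Figure D3:**
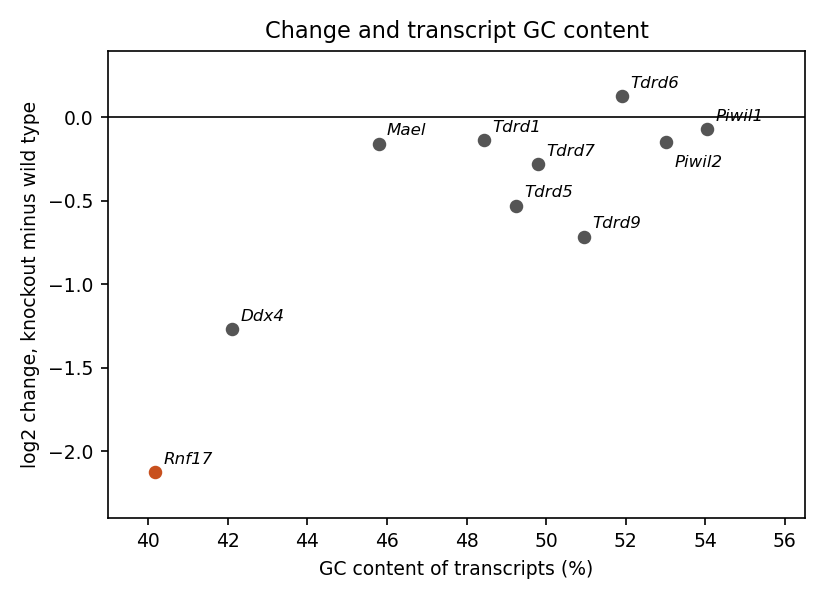
Log2 change, knockout minus wildtype, against the GC content of each gene's transcripts in percent, with 1 point a gene and Rnf17 in orange. Rnf17 and Ddx4 have both the lowest GC content and the lowest changes, and the other 8 points lie between -0.71 and 0.13.

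Ddx4, the germline DEAD-box helicase also called VASA and a main protein of the chromatoid body, did not pass. It stood at 167 FPKM in wildtype library 1, 241 in wildtype library 2, 117 in knockout library 1 and 58.4 in knockout library 2. Both knockout values lay below both wildtype values, but the knockout libraries differed from each other by 2.003 times, close to the ratio of the genotype means, 2.32. Its log2 change was -1.27 (SE 0.42, 95% interval -2.30 to -0.23, unadjusted p = 0.0242, limma adjusted p = 0.105). The Ddx4 change was -1.76 without knockout library 1 and -0.77 without knockout library 2. After the GC correction it was -0.59 (limma adjusted p = 0.386). Relative to Piwil1, Ddx4 was 40.8 and 39.2 times as abundant in the wildtype libraries and 21.4 and 14.3 times in the knockout libraries.

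Tdrd5, a Tudor protein needed for round spermatids and for transposon silencing, was the third gene with no overlap between genotypes. It stood at 3.00 and 4.41 FPKM in the wildtype, against 2.09 and 2.36 FPKM without Sox30, and its log2 change of -0.53 (SE 0.36) did not pass, at a limma adjusted p = 0.366. Rnf17, Ddx4 and Tdrd5 were thus the 3 of 10 genes whose knockout values lay wholly below the wildtype values, and 0 lay wholly above. Among all genes tested, 38.6% lay wholly below and 22.2% wholly above. For the other 7 genes the genotypes overlapped.

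The PIWI genes differed little in mean between genotypes. Piwil1 stood at 4.10 and 6.14 FPKM in the wildtype and at 5.48 and 4.09 FPKM in the knockout. Its log2 change was -0.07 (95% interval -1.01 to 0.87, limma adjusted p = 0.919). Piwil2, the PIWI protein active from fetal germ cells to spermatids, stood at 3.07 and 4.08 FPKM against 2.25 and 4.18 FPKM, with a log2 change of -0.15 (95% interval -1.14 to 0.84, limma adjusted p = 0.835). In both genes the libraries of a genotype differed by more than the genotype means did. The intervals still allow a change of about 2-fold either way, so these values do not show that the PIWI genes were unaffected.

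The Tudor genes other than Rnf17 and Tdrd5 overlapped between genotypes. Tdrd6, a large scaffold of the chromatoid body, stood at 9.97 and 14.0 FPKM in the wildtype and at 10.7 and 15.8 FPKM in the knockout. It was the only 1 of the 10 genes with a positive change, 0.13 (95% interval -0.80 to 1.05, limma adjusted p = 0.846), although with quantile normalization Piwil1, Piwil2, Tdrd1, Tdrd5 and Tdrd7 were positive too. Tdrd7, which helps shape the chromatoid body, stood at 27.2 and 52.2 FPKM in the wildtype, against 39.5 and 24.1 FPKM without Sox30 (log2 change -0.28, limma adjusted p = 0.701). The highest and the second-lowest of its 4 values both came from the wildtype. Tdrd1, a partner of PIWIL2 in piRNA production, stood at 4.24 and 6.43 FPKM in the wildtype, against 5.55 and 3.94 FPKM without Sox30 (log2 change -0.13, limma adjusted p = 0.846).

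Tdrd9, a Tudor protein with a helicase domain that silences transposons, varied most within genotypes. It stood at 2.76 and 7.52 FPKM in the wildtype and at 4.26 and 1.26 FPKM in the knockout. The libraries of a genotype differed by 2.72 times in the wildtype and 3.37 times in the knockout, more than the genotype means, whose ratio was 1.86 (log2 change -0.71, 95% interval -2.19 to 0.76, limma adjusted p = 0.460). The Tdrd9 change was -1.32 without knockout library 1 and -0.11 without knockout library 2. Mael stood at 1689 and 890 FPKM in the knockout, on either side of its wildtype values (log2 change -0.16, 95% interval -1.08 to 0.76, limma adjusted p = 0.808).

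Libraries of a genotype differed too. Wildtype library 2 lay above wildtype library 1 for 9 of 10 genes, all but Mael, and for 58.8% of all genes tested. Knockout library 1 lay above knockout library 2 for 7 of 10, all but Tdrd5, Tdrd6 and Piwil2, and for 60.7% of all genes tested. For 7 of the 10 genes the larger ratio between libraries of a genotype exceeded the ratio between genotype means. The share of all genes tested for which this held was not computed. The exceptions among the 10 were Rnf17, Ddx4 and Tdrd5.

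Genes whose loss stops germ cells in meiotic prophase were close in median to those whose loss stops them as round spermatids. These classes name the stage of arrest and not when a gene is transcribed. The median log2 change was -0.16 over the 5 genes whose loss stops meiosis and -0.28 over the 5 whose loss stops round spermatids, a difference of 0.12. Within the first class changes ran from -1.27 for Ddx4 to -0.13 for Tdrd1, and within the second from -2.13 for Rnf17 to 0.13 for Tdrd6. A related gap, that between class medians of each library's deviations from gene means, had a pooled SD of 0.36 between libraries of a genotype. The difference of 0.12 is smaller than that SD, and its sign turned under several settings. It was -0.30 without wildtype library 2, -0.15 without knockout library 1, -0.22 with quantile normalization, -0.19 with that of the tested genes alone and -0.0026 with the GC correction. Without Rnf17 the median of the second class was -0.18. By transcript onset, the 3 genes that come on at pachytene, Piwil1, Tdrd6 and Rnf17, had changes of -0.07, 0.13 and -2.13. The median over the 7 genes active in earlier germ cells was -0.28. The 10 genes together had a median of -0.22, and all genes tested had a median of -0.23.

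Among the tested partner genes of these pathways 8.57% were called lower, against 13.4% of all genes tested. Of 20 listed piRNA pathway partners, 17 were in the tables and 14 were tested, of which 1 was lower, 0 higher and 13 not called, with a median log2 change of -0.57. The gene called was Tex15, which acts in meiotic recombination and in PIWI-directed silencing. It stood at 3.60 and 3.76 FPKM in the wildtype and at 0.00620 and 0.237 FPKM in the knockout (log2 change -2.07, SE 0.32, limma adjusted p = 0.00968), with a transcript GC content of 41.8%. Tex15 was not called without wildtype library 1 (log2 change -2.09) or without wildtype library 2 (-2.04). Those fits left a single wildtype library and cannot decide its call. The change was -1.37 after the GC correction (limma adjusted p = 0.0322), and the call was lost with the GC curve fitted to levels (-1.14, limma adjusted p = 0.0614) and with quantile normalization of the tested genes alone (-1.17, limma adjusted p = 0.0592). With knockout values this low the size rested on the pseudocount, at -4.32 with 0.1 and -0.76 with 5. Gtsf1, a cofactor of PIWI slicing, stood at 1935 and 1432 FPKM against 1717 and 2074 FPKM and did not pass (limma adjusted p = 0.708). Gtsf1 was thus of the order of Mael in level, while Piwil1 and Piwil2 lay below 7 FPKM in every library.

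Of 9 other genes with Tudor domains, 8 were tested, of which 1 was lower, 0 higher and 7 not called, with a median of -0.48. Akap1, a mitochondrial anchor of protein kinase A, stood at 8.01 and 16.8 FPKM in the wildtype and at 0.0438 FPKM and 0 in the knockout (log2 change -3.63, SE 0.44, limma adjusted p = 0.00375). Its log2 change was -3.14 without wildtype library 2, where it was not called. That fit left a single wildtype library, so it cannot decide the call. Here too the size rested on the pseudocount, at -6.61 for 0.1 and -1.74 for 5. Tdrd12, a Tudor protein of piRNA production, stood at 40.5 and 35.5 FPKM in the wildtype, against 31.3 and 28.9 FPKM without Sox30, and did not pass (limma adjusted p = 0.489).

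Of 23 chromatoid body and RNA decay genes, 14 were tested and 9 had a mean FPKM under 1. Of the tested, 1 was lower, 0 higher and 13 not called, with a median of -0.58. Cnot7, a deadenylase of the CCR4-NOT complex, stood at 17.6 and 18.8 FPKM in the wildtype and at 6.99 and 6.10 FPKM in the knockout (log2 change -1.35, SE 0.33, limma adjusted p = 0.0448), with a GC content of 39.8%. That call was near the threshold. It was lost with a pseudocount of 0.1 (limma adjusted p = 0.0589), with no filter on low values (0.0588) and after median-ratio scaling (0.0705). Quantile normalization (0.126) and that of the tested genes alone (0.123) also lost it. So did the GC correction (log2 change -0.53, limma adjusted p = 0.387) and the GC curve fitted to levels (0.565). A block on library number lost it without (0.128) and with the GC correction (0.574). The call was kept with a pseudocount of 5, a minimum mean of 5 FPKM and the other variance models. Cnot7 was not called without wildtype library 1 (log2 change -1.39) or 2 (-1.30). Those fits left a single wildtype library and cannot decide its call. Ddx25, a helicase of the chromatoid body that carries messenger RNA, stood at 815 and 761 FPKM in the wildtype, against 814 and 439 FPKM without Sox30, and did not pass (limma adjusted p = 0.496). Over the 3 lists together, with Tdrkh in 2 of them, 3 of 35 genes tested were lower, 8.57% against 13.4% of all genes, and 0 were higher. At an unadjusted limma p under 0.05 there were 8 lower and 0 higher, a share of lower genes close to the 23.0% of all genes. The medians of the lists lay below that of all genes, and no test of that difference was made.

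**Figure D4:**
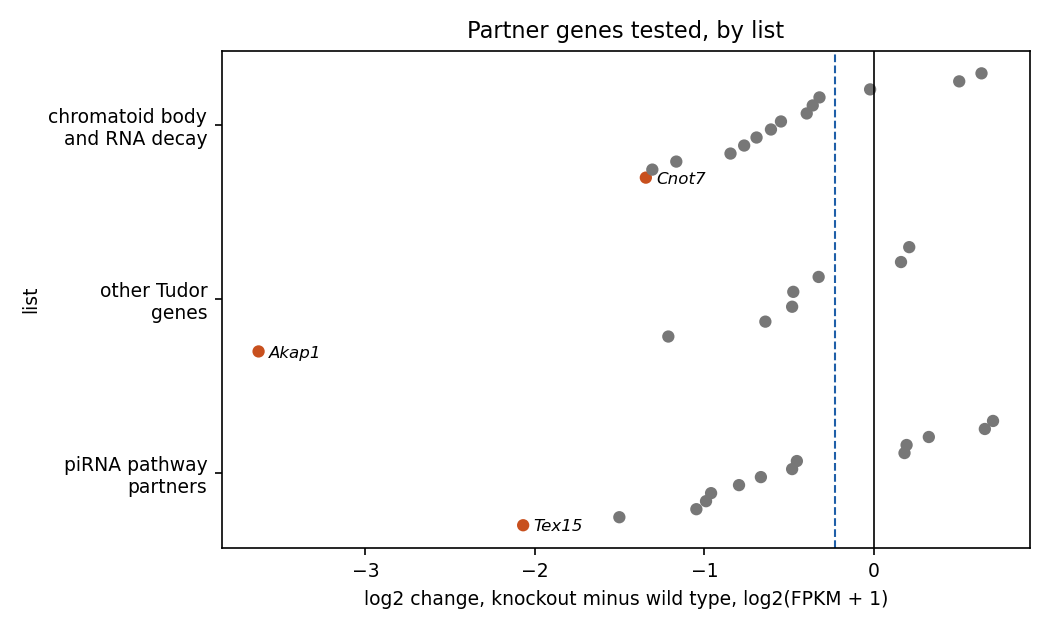
Log2 change, knockout minus wildtype, of the tested partner genes in 3 lists, with 1 point a gene, orange for an adjusted p under 0.05 and the dashed line at the median of all genes tested. Tex15, Akap1 and Cnot7 are the orange points, and most other points lie between -1.5 and 0.7.

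The profile of the 10 genes over the 4 libraries was summarised by the median deviation of log2(FPKM + 1) from each gene's mean. This median was -0.14 and 0.40 in wildtype libraries 1 and 2 and near 0 and -0.38 in knockout libraries 1 and 2. Among 4283 other tested genes with a wildtype mean of at least 10 FPKM, the nearest by Euclidean distance over the 4 libraries were Dnajb11 (distance 0.0998), 2310044H10Rik (0.105), Ralgps2 (0.117), E2f4 (0.121) and Zfp385c (0.124). Dnajb11, for one, stood at 28.8 and 45.1 FPKM in the wildtype and at 34.0 and 24.8 FPKM in the knockout. Rnf17 lay farthest from the median profile, at a distance of 1.86, and Tdrd1 nearest, at 0.198.

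**Figure D5:**
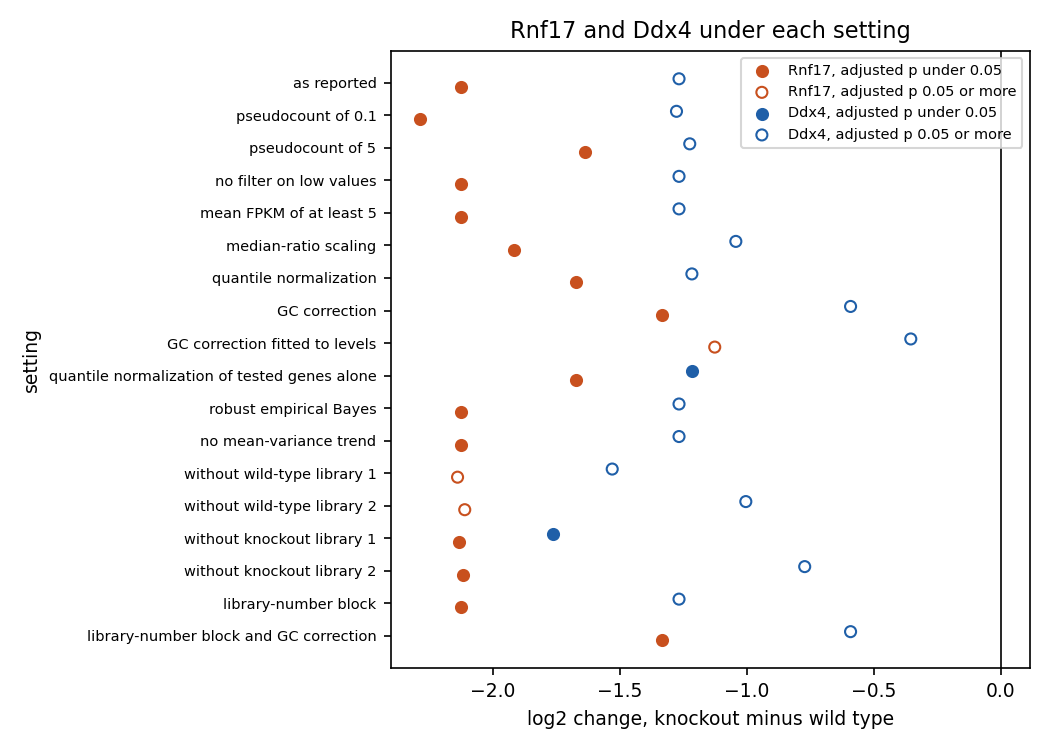
Log2 change of Rnf17 (orange) and Ddx4 (blue), knockout minus wildtype, in the fit as reported and under each other setting, with filled points for an adjusted p under 0.05. Rnf17 is negative in every setting and filled in all but 3 of the 17 alternatives, and Ddx4 is negative in every setting and filled in 2.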

How the data were processed

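RNA sequencing of 4 libraries of sorted haploid cells was analysed from the FPKM that the authors deposited, 1 table of 23021 entries per library, per the file headers. Cufflinks 2.0.2, Cuffdiff, TopHat2 2.0.6 and the build mm9 are listed, per the submitters' processing notes. The sources used here do not give their roles, the annotation or the use of strand, so overlapping antisense transcripts cannot be told apart. The kit was NEBNext Ultra, per the labels' protocols.

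The 259 repeated symbols were summed. Genes with a mean of at least 1 FPKM over the 4 libraries were tested, 9124 in all, the 10 members among them. Values were log2(FPKM + 1), which understates the change of low genes, and were not rescaled. Genotype was the only term in limma 3.58.1 (R 4.3.3) with a mean-variance trend (2 residual and 3.84 prior degrees of freedom). Two-sided p-values were adjusted by Benjamini-Hochberg over all genes tested, and 0.05 was the threshold. Groups and library numbers came from the sample titles. Relative depth was the commonest ratio of values under 1 FPKM, found within 0.01 on the log2 scale. The absolute depth is unknown, and no counting intervals are given. GC content is the median over a symbol's GENCODE M21 transcripts, and the GC correction is a lowess curve of span 0.3. The fit was also run on simulated data, whose outcome is not given here and is not used to judge the calls.

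The members, classes and lists were chosen with earlier results of these data known. Named were Sox30, the 10 members, up to 4 called genes a direction in each partner list topped up to 2 by level, and the 5 genes nearest in profile. Alternatives were other pseudocounts, filters, scalings, variance models, GC corrections, a block on library number and leaving out each library. The deposited tables hold no sequences, and promoters came from RefSeq.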

Additional observations from a re-analysis of the deposited data

How the results depend on the processing

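Over 17 alternatives, Rnf17, Ddx4 and Tdrd9 kept a negative change wherever they were tested, and the other 7 genes turned sign under at least 1. None of those 7 passed the threshold in these fits. Rnf17 passed in 14 of the 17 alternatives, with changes from -2.29 to -1.13. Leaving out 1 library gave from 0 to 3 members lower (0 without either wildtype library, 3 without knockout library 1) and 0 higher. It gave from 0 to 11 partner genes lower and from 0 to 1 higher, from 0 to 3071 of all genes lower and from 0 to 984 higher, and a class difference from -0.30 to 0.35. A genotype left with 1 library was assumed to vary like the other. Leaving out a library gave changes from -0.32 to 0.17 for Piwil1, -0.49 to 0.19 for Piwil2, -0.39 to 0.12 for Tdrd1, -0.13 to 0.39 for Tdrd6, -0.74 to 0.18 for Tdrd7, -0.62 to 0.30 for Mael, -0.037 to 0.40 for Gtsf1 and -0.84 to 0.049 for Ddx25.

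The median over all genes, -0.23 as reported, became -0.05 with median-ratio scaling and 0.17 with quantile normalization, so small changes are relative to it. Median-ratio scaling gave 0.12 for Piwil1, 0.037 for Piwil2, 0.054 for Tdrd1 and 0.069 for Mael. Quantile normalization gave 0.49 for Piwil1, 0.43 for Piwil2, 0.43 for Tdrd1, 0.053 for Tdrd5, 0.0057 for Tdrd7, -0.43 for Gtsf1 and 0.010 for Tdrd12. It split all calls into 1012 lower and 608 higher, against 1221 and 178. The GC correction gave 0.23 for Tdrd1, 0.012 for Tdrd7, 0.34 for Mael, 0.14 for Tdrd12 and 0.055 for Ddx25, and 1177 lower and 321 higher among all genes. All genes higher numbered 62 with no filter, 113 with a pseudocount of 0.1 and 273 with median-ratio scaling, and a minimum of 5 FPKM left 787 lower.

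Settings chosen after seeing the data were 3. A GC curve fitted to levels gave 0 members lower, 1 partner gene lower and 1 higher (960 and 855 of all genes), with 0.24 for Piwil1, 0.27 for Piwil2, 0.56 for Tdrd1, 0.14 for Tdrd5, 0.36 for Tdrd7, 0.65 for Mael, 0.45 for Tdrd12 and 0.37 for Ddx25. Quantile normalization of the tested genes alone gave 2 members lower, Rnf17 and Ddx4 (-1.22, limma adjusted p = 0.0381), and 1 partner gene lower and 1 higher. Among all genes it gave 999 lower and 961 higher, against 1221 and 178 as reported. The changes were 0.50 for Piwil1, 0.45 for Piwil2, 0.43 for Tdrd1, 0.067 for Tdrd5, 0.0057 for Tdrd7, -0.43 for Gtsf1 and 0.010 for Tdrd12. The cause of these moves was not tested.

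The deviations of same-numbered libraries correlated at -0.20 over 9124 genes, and a block on library number left 1 member lower and 0 higher (Rnf17, limma adjusted p = 0.0205) and 1056 of all genes lower and 82 higher. The block with the GC correction gave -1.34 for Rnf17 (limma adjusted p = 0.0451), 0.23 for Tdrd1, 0.012 for Tdrd7, 0.34 for Mael, 0.14 for Tdrd12 and 0.055 for Ddx25. A crossed block gave 2 members lower, Rnf17 and Ddx4, 0 higher, and 1416 of all genes lower and 390 higher. With a minimum mean of 5 FPKM, 6 members were tested.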
